A study of Mus musculus with 15 samples.

Results

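piRNAs from IAP elements were taken from the deposited counts as all loci whose repeat label had the class LTR, the family ERVK and a name beginning with IAP. A locus is one deposited genomic interval with its strand, and 57668 of the 8128951 loci found in 15 libraries met this rule. They carried 327908 counts in all under 19 repeat names, and 255371 further loci belonged to ERVK elements that are not named IAP. Most members were rare. Of the 36996 IAP loci seen in the immunoprecipitation libraries, 21508 had a single count, and 1126 had more than the 20 counts in total that were required for testing. Of the 30684 IAP loci seen in the chemically treated set, 18772 had a single count and 1196 were tested. The tested loci held 43.6% and 61.0% of the IAP counts of their sets.

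Small RNA came from the testes of C57Bl/6 male mice aged 8 weeks, and all 15 libraries share this strain, tissue and age. In the CMC arm, 3 libraries had been CMC-treated and 3 mock-treated (labelled mock treated, and untreated in the titles). In the IP arm, small RNA was incubated with an antibody against pseudouridine (D347-3), and 3 libraries each were made from the input, from the bound RNA (Ψ-IP) and from the unbound flow-through. The arms were made with kits of different makers (NEBNext for CMC and mock, Perkin Elmer Nextflex for the others), so a difference between the arms and a difference between the kits cannot be told apart. The labels do not say that the 3 libraries of a group came from separate animals, so the p-values measure the spread between these libraries, which may be technical.

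IAP elements are endogenous retroviruses of the mouse that move by copying their RNA into DNA. Their internal part (names ending in int) encodes the retroviral proteins, and it lies between long terminal repeats (LTRs) that hold the promoter. In the male germline, Piwi proteins use piRNAs cut from long transcripts to find and silence transposons. MILI typically binds shorter piRNAs than MIWI, which takes up longer ones in meiotic and post-meiotic cells. When Piwi proteins slice complementary transcripts in turn, the resulting piRNAs overlap by 10 nt at their 5′ ends. Pseudouridine (Ψ) is an isomer of uridine. CMC binds Ψ and stops reverse transcription, which removes modified molecules from a library, whereas Ψ-IP recovers them. Testis holds many cell types, and in these bulk libraries fewer cells of a type and less RNA per cell cannot be told apart.

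Sequences of exonic IAP piRNAs whose locus or 5′ end was higher in bound than in unbound RNA are given first. They were not chosen by their level against input, which is given below. They were read from GENCODE exons of GRCm38 (mm10), which cover 10502 IAP loci with 17.7% of the IAP counts, so no sequence is shown for the abundant loci of chromosome 14. One 5′ end in an LTR named IAPLTR2 (chr17:27354833, plus strand, inside an exon of the lincRNA Gm49794) gave rise to piRNAs of many lengths. Capitals mark the 3′ bases beyond the 26-nt form.
IAPLTR2 26 nt, chr17:27354833-27354858: tagttatcgtcccttttaaggagaat
IAPLTR2 27 nt, chr17:27354833-27354859: tagttatcgtcccttttaaggagaatT
IAPLTR2 28 nt, chr17:27354833-27354860: tagttatcgtcccttttaaggagaatTA
IAPLTR2 29 nt, chr17:27354833-27354861: tagttatcgtcccttttaaggagaatTAT
IAPLTR2 30 nt, chr17:27354833-27354862: tagttatcgtcccttttaaggagaatTATC

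The 5 forms start with T, the usual first base of piRNAs. They held 284, 1096, 258, 152 and 244 counts over the 15 libraries, from the shortest to the longest, so the 27-nt form was the most frequent. The 28-nt form had 0 counts in each of the 6 CMC and mock libraries and 93, 35 and 72 counts in the input libraries, whereas the 27-nt form had between 25 and 65 counts in each CMC or mock library. A pair of neighbouring 30-nt loci of the same LTR and strand are shown because their levels are given below.
IAPLTR2, chr17:27354811-27354840: tcaaattttattgttgcgacactagttatc
IAPLTR2, chr17:27354816-27354845: ttttattgttgcgacactagttatcgtccc

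A further sequence is shown because it occurs at several places in IAP elements. The 30-nt locus of the internal element IAPEz-int at chr17:27354148-27354177 (plus strand, Gm49794 exon) has the same sequence as 4 other exonic IAP loci, at chr17:27354223-27354252, chr10:83418406-83418435, chr10:83418481-83418510 and chr10:83472417-83472446.
IAPEz-int, 5 loci: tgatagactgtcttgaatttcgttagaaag

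Both chromosome 17 loci lie in one IAPEz-int stretch, and chr10:83418406-83418435 and chr10:83418481-83418510 lie in another, so the sequence also recurs within a stretch. The 5 identical loci held between 14 and 30 counts each. A sixth locus, chr10:83418556-83418585 in D10Wsu102e, differs from them by A17G, counted from 1 at the 5′ end, and held 85 counts. How reads that map to several places were counted is not given in the sources used here, so levels at identical loci are uncertain. Among all tested IAP loci inside exons (411 of 1944), 93.7% began with T, against 83.8% of the 151278 other tested exonic loci. The tenth base was A, the base that faces the first T of a sliced partner, in 32.1% of the IAP loci and 27.9% of the others. The letters TNTAA or TNTAG, read on the piRNA strand only, occurred in 29.9% of the exonic IAP loci and in 22.8% of the other exonic loci. In both sets, loci of different length with the same 5′ end were counted separately, as with the IAPLTR2 forms printed above. The members of these shares are therefore not independent, and no test was run on them.

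IAP piRNAs as a whole were a small share of the counts, higher in every library of the IP arm than in any of the CMC arm. Levels are given in RPM, the count scaled to 1000000 deposited counts of the library. The totals ranged from 11575705 to 58399368 counts, of which 10805 to 44097 were from IAP loci. IAP loci reached 737, 755 and 734 RPM in the mock-treated libraries and 750, 760 and 766 RPM in the CMC-treated libraries. They reached 996, 948 and 1003 RPM in input, 980, 933 and 943 RPM in Ψ-IP, and 864, 890 and 886 RPM in flow-through. Input and Ψ-IP overlapped, while the flow-through libraries lay below every Ψ-IP library and mock overlapped with CMC.

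No difference of the IAP total passed the threshold, an adjusted p below 0.01 in edgeR's quasi-likelihood test over 36 repeat families with IAP set apart from ERVK. It differed by 0.02 on the log2 scale for Ψ-IP against input (SE 0.06, edgeR adjusted p = 0.81), 0.04 against flow-through (SE 0.07, edgeR adjusted p = 0.604) and 0.06 for CMC against mock (SE 0.04, edgeR adjusted p = 0.381). Over all 36 families, 36.1%, 44.4% and 8.33% passed in these comparisons, in the same order. Ψ-IP and input differed in total IAP by so little that the sign depended on the scaling of the libraries.

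IAP made up between 3.88% and 4.59% of the ERVK counts of a library. The ratio of IAP to other ERVK counts was lower in every Ψ-IP library than in any input library. On the log2 scale it was −4.42, −4.49 and −4.38 in input and −4.53, −4.63 and −4.58 in Ψ-IP, a difference of −0.15 (p = 0.1 by a two-sided exact permutation test, the least that 3 against 3 libraries can give). Against flow-through the difference was −0.03 (exact permutation p = 0.6), and with only loci of more than 20 counts it was 0.18 (exact permutation p = 0.1). The CMC-treated libraries lay above the mock-treated ones by 0.05 (exact permutation p = 0.1).

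A single repeat name made up most of the IAP piRNAs. Pooled over the 15 libraries, IAPLTR3-int held 60.5% of the IAP counts, followed by IAPEY3-int with 16.9% and IAPEz-int with 11.4%. IAPEY3-int and IAPEz-int were close in the IP arm (19344 and 18426 counts) and further apart in the CMC arm (35914 and 19101 counts). The LTRs were far less abundant, with 4.33% for IAPLTR2 and 2.50% for IAPLTR3. IAPLTR3-int reached 443, 446 and 435 RPM in mock, 443, 458 and 438 RPM in CMC, 605, 591 and 611 RPM in input, 628, 604 and 605 RPM in Ψ-IP and 522, 540 and 544 RPM in flow-through. The IP arm thus lay above the CMC arm throughout, and within each arm the groups compared with input or mock overlapped. IAPEY3-int had the opposite order between the arms, with 154 to 158 RPM in mock and 125 to 131 RPM in input.

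IAPLTR2 was the one IAP name that passed with edgeR as higher in bound than in unbound RNA. It reached 67.7, 66.1 and 58.1 RPM in Ψ-IP and 36.8, 34.0 and 32.2 RPM in flow-through, and 82.8, 66.6 and 89.96 RPM in input. Flow-through was the low group, with no overlap with the other two. The bound fraction exceeded the unbound one by 0.89 on the log2 scale (SE 0.10, edgeR adjusted p = 1.49e-05, higher in 9 of 9 pairings of libraries). Against input the log2 fold change was −0.31 (SE 0.11, edgeR adjusted p = 0.0444). One copy carried this rise, the chromosome 17 segment chr17:27354580-27355047 described below. Without it, IAPLTR2 had 8.82, 11.2 and 12.2 RPM in Ψ-IP and 17.9, 15.8 and 15.4 RPM in flow-through, so that the remaining copies were lower in bound RNA without overlap, a difference on which no test was run. Of the 14 other IAPLTR2 segments tested, 11 had log2 fold changes below 0 and 0 passed. With a median of 18.7 RPM, the mock-treated libraries held less IAPLTR2 than any library of the IP arm.

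Of the 16 IAP names tested in Ψ-IP against flow-through, 1 was higher, beside 18.6% of all 548 names, and 3 were lower, beside 17.9%. The median log2 fold change was −0.30 over the IAP names and 0.01 over all names. IAPLTR2a, another LTR, had 5.57, 5.96 and 5.10 RPM in Ψ-IP and 12.2, 9.23 and 9.16 RPM in flow-through, with no overlap. Its log2 fold change was −0.90 (SE 0.17, edgeR adjusted p = 0.00113). IAPLTR3 fell by 0.45 (SE 0.12, edgeR adjusted p = 0.00677) and IAPEz-int fell by 0.35 (SE 0.08, edgeR adjusted p = 0.00447), each on the log2 scale. IAPLTR3 lost its call in 5 of 12 alternatives and IAPEz-int in 4, most of them fits without 1 library. IAPLTR3-int, which holds most of the counts, did not pass (0.19, edgeR adjusted p = 0.0148), but was called by DESeq2 (0.20, DESeq2 adjusted p = 0.00924) and with loci of 24 to 33 nt alone (0.22, edgeR adjusted p = 0.00988).

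In Ψ-IP against input, 0 of the 16 names passed with edgeR, 4 had an unadjusted p under 0.05, and DESeq2 called 1 (IAPLTR2, lower). Over all names 21.0% passed in either direction. IAPLTR2a had 9.02, 7.42 and 7.47 RPM in input, above all 3 Ψ-IP libraries, with a log2 fold change of −0.53 (SE 0.14, edgeR adjusted p = 0.0144). Since both comparisons use the same 3 Ψ-IP libraries, their values are given side by side and not as 2 independent results.

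CMC treatment changed 0 of 16 IAP names with edgeR, with 5 at an unadjusted p under 0.05, beside 5.60% of all 536 names in either direction. The LTR IAPLTR2b came closest. It had 5.50, 8.15 and 7.31 RPM in mock and 7.95, 10.7 and 12.1 RPM in CMC, so that the lowest CMC-treated library lay within the range of the mock-treated ones. Its log2 fold change was 0.49 (SE 0.15, edgeR adjusted p = 0.0564). DESeq2 called it (0.51, DESeq2 adjusted p = 0.00749), as did the fit with the replicate number as a block (0.53, edgeR adjusted p = 0.0019). Each CMC-treated library lay above the mock-treated library of its number.

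**Figure D1:**
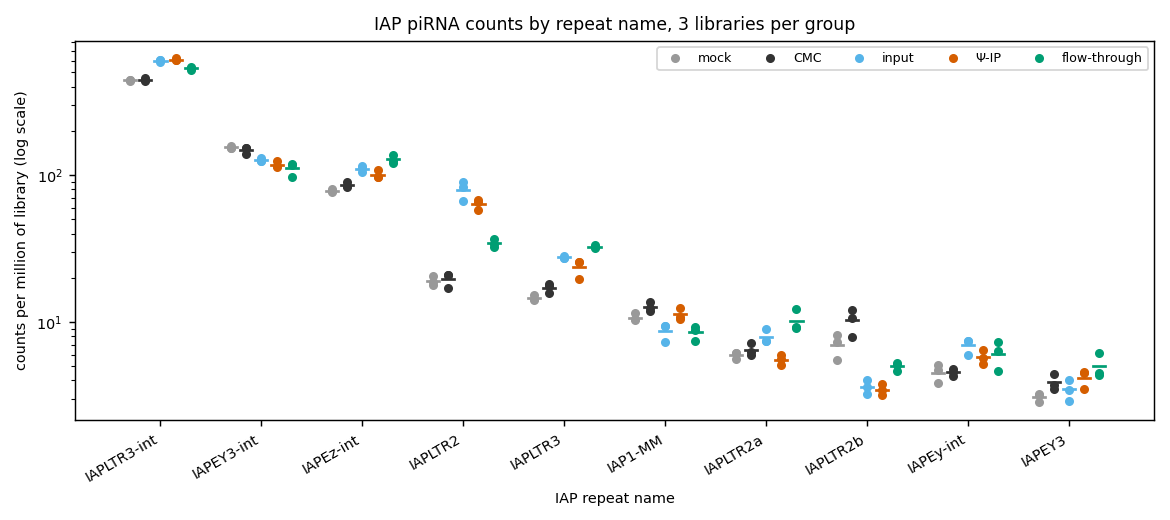
Level of the IAP repeat names in each library, in RPM on a log axis, with 1 point per library, a line at each group mean and colours for the 5 groups. IAPLTR3-int lies on top at 435 to 628 RPM, and IAPLTR2 shows flow-through (32.2 to 36.8 RPM) below input and Ψ-IP.

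The deposited IAP counts lay in few places in the genome. The authors had kept only reads inside annotated piRNA clusters, which limits where loci can lie. Loci of the same repeat name on the same chromosome with gaps of at most 1000 nt were joined into 178 segments. Pooled over all libraries, the most abundant segment held 25.8% of the IAP counts, the first 2 held 42.5%, the first 5 held 62.9% and the first 10 held 76.5%. By library, these first 2 held 35.0% to 39.2% in the IP arm and 45.6% to 47.0% in the CMC arm. Chromosome 14 alone gave 45.3% of the IAP counts. Of the 47 segments with an average of at least 20 counts per library, 31 had at least 90% of their counts on 1 strand.

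The most abundant segment was an IAPLTR3-int stretch at chr14:19628682-19636212 (mm10), intergenic and 50 nt from the lincRNA 4930469B13Rik, with 99.1% of its counts on the minus strand. It reached 193, 193 and 186 RPM in mock, 199.5, 210 and 197 RPM in CMC, 250, 248 and 259 RPM in input, 260, 252 and 246 RPM in Ψ-IP and 206, 215 and 221 RPM in flow-through. Flow-through lay below all Ψ-IP libraries, and input overlapped with Ψ-IP. Fitted log2 fold changes were 0.04 against input (edgeR adjusted p = 0.779), 0.44 against flow-through (SE 0.09, edgeR adjusted p = 0.00135) and 0.03 for CMC against mock (edgeR adjusted p = 0.871). Scaled to library totals in place of TMM, the value against flow-through was 0.24 and did not pass (edgeR adjusted p = 0.0555).

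The second segment was IAPEY3-int at chr14:44760227-44767844, which overlaps the lincRNA Gm34060 on the opposite strand. It reached 153, 157 and 152 RPM in mock and 152, 138 and 153 RPM in CMC. In the IP arm it reached 130, 124 and 124 RPM in input, 114, 113 and 124 RPM in Ψ-IP and 96.1, 117 and 117 RPM in flow-through. None of its 3 comparisons passed. IAPLTR3-int at chr18:67074887-67081141, inside an exon of the lincRNA AC140207.2, and IAPEz-int at chr17:27351385-27354565 passed in none either. IAPLTR3-int at chr8:67368774-67375914 was higher in Ψ-IP (38.2, 37.5 and 37.5 RPM) than in flow-through (27.7, 28.9 and 30.8 RPM). This is a difference of 0.57 on the log2 scale (SE 0.12, edgeR adjusted p = 0.000823), which did not pass when scaled to library totals (0.37, edgeR adjusted p = 0.0238).

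Against flow-through, 8 of the 110 IAP segments were higher in Ψ-IP, beside 9.45% of all 4591 segments, and 1 was lower, beside 7.28%. With library totals in place of TMM the split was 4 higher and 4 lower, beside 7.43% and 10.6%, since TMM shifted all segments by 0.20 on the log2 scale in this comparison. The rise with the smallest adjusted p was that of the LTR beside the abundant IAPEz-int stretch of chromosome 17, IAPLTR2 at chr17:27354580-27355047, inside the exon of Gm49794. It had 58.9, 54.9 and 45.9 RPM in Ψ-IP, 18.9, 18.2 and 16.9 RPM in flow-through and 70.7, 54.4 and 78.5 RPM in input. The unbound libraries were lowest and did not overlap with either group. Against flow-through it was higher by 1.76 on the log2 scale (SE 0.13, edgeR adjusted p = 1.49e-09), and against input the value was −0.32 (SE 0.12, edgeR adjusted p = 0.0497). With the replicate number as a block this segment was called lower than in input (−0.31, edgeR adjusted p = 0.00494). It was also called without input replicate 2 (−0.45, edgeR adjusted p = 0.00416) and with no minimum count (−0.36, edgeR adjusted p = 0.00683). Directly beside it, IAPEz-int had 98.7, 85.4 and 81.2 RPM in flow-through and 72.2, 63.1 and 62.9 RPM in Ψ-IP (log2 fold change −0.22, edgeR adjusted p = 0.157). The groups did not overlap, and scaled to library totals the segment was lower in Ψ-IP (−0.42, edgeR adjusted p = 0.00745).

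IAPLTR3-int at chr2:98330534-98335796 had 36.9, 38.4 and 36.6 RPM in Ψ-IP and 19.9, 23.4 and 25.6 RPM in flow-through, a log2 fold change of 0.90 (SE 0.13, edgeR adjusted p = 1.46e-05). The IAPLTR3-int segments chrX:5567802-5571997 and chrX:65573500-65578784 rose by 0.73 (edgeR adjusted p = 0.00025) and 0.76 (edgeR adjusted p = 0.000225) on the log2 scale. These and the chromosome 17 LTR kept their calls with library totals, at 0.70 for chromosome 2, 0.53 and 0.56 for chromosome X and 1.56 for the LTR. IAPEy-int on chromosome 16 (2.16, edgeR adjusted p = 0.00604, on 4 or 5 counts in each flow-through library) and IAPLTR3-int on chromosome 19 (0.66, edgeR adjusted p = 0.00399) lost theirs in 6 alternatives each. Of the 8 segments that rose, 6 carried the name IAPLTR3-int, as did 16 of the 110 tested, and with library totals 3 of 4 did. With library totals a segment of the same name, chr2:23291032-23294234, was among the 4 that were lower (−0.78, edgeR adjusted p = 0.00261, and −0.58, edgeR adjusted p = 0.0205, with TMM). Segments of one name can hold near-identical sequence, so they may share reads, which was not tested, and cannot be taken as independent.

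Against input, 1 IAP segment was higher, beside 6.56% of all segments, and 2 were lower, beside 7.41%, and without input replicate 1 the number fell to 0. IAPLTR3-int at chrX:5567802-5571997 did not pass against input in the main fit. It was called higher by DESeq2 (0.38, DESeq2 adjusted p = 0.00691), with the replicate number as a block (0.36, edgeR adjusted p = 0.00642) and without Ψ-IP replicate 2 (0.41, edgeR adjusted p = 0.00955). IAP1-MM at chr10:75863280-75863573, 3040 nt from Mif, which encodes a cytokine, had 5.57, 3.46 and 5.01 RPM in Ψ-IP and 2.63, 2.11 and 3.34 RPM in input. The lowest Ψ-IP library was just above the highest input library, and the log2 fold change was 0.85 (SE 0.21, edgeR adjusted p = 0.00312). The LTR IAPLTR3 at chr18:67081142-67081478 had 10.2, 8.12 and 12.1 RPM in Ψ-IP and 15.1, 15.5 and 16.7 RPM in input (log2 fold change −0.56, SE 0.14, edgeR adjusted p = 0.00302). IAPLTR2a at chr14:24100427-24100841 was low in Ψ-IP against both other groups. It had 1.20, 0.95 and 1.17 RPM in Ψ-IP, 3.07, 2.96 and 2.28 RPM in input and 3.12, 3.13 and 2.52 RPM in flow-through. Its log2 fold change was −1.26 against input (SE 0.27, edgeR adjusted p = 0.000574) and −1.19 against flow-through (SE 0.32, edgeR adjusted p = 0.00788). The latter call was lost in 8 of 12 alternatives.

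For CMC against mock, 0 of 111 IAP segments passed with edgeR, with 15 at an unadjusted p under 0.05 and 0 called by DESeq2, beside 1.94% of all 4373 segments in either direction. With the replicate number as a block 1 passed, IAPLTR2b at chr7:127240426-127240812 (0.60, edgeR adjusted p = 0.00649). The median log2 fold change was 0.12 over the IAP segments and 0.00 over all segments.

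**Figure D2:**
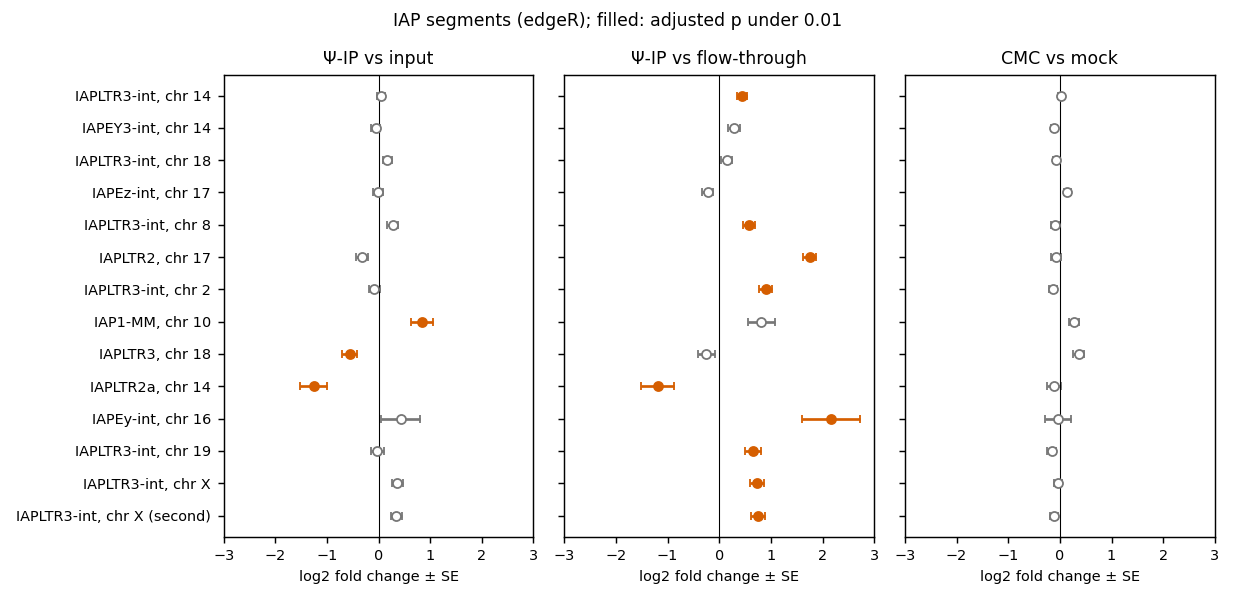
Log2 fold change of each named IAP segment in the 3 comparisons (panels), with bars of 1 SE and filled points where the edgeR adjusted p is under 0.01. In Ψ-IP against flow-through the IAPLTR2 segment of chromosome 17 lies at 1.76 and IAPLTR2a of chromosome 14 at −1.19, and no point is filled for CMC against mock.

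Some single IAP loci differed between the fractions. Of the 1126 tested loci, 28 were higher in Ψ-IP than in input, beside 5.45% of all 686863 tested loci, and 60 were lower, beside 10.7%. These are 2.49% and 5.33% of the IAP loci, below the share over all loci in both directions. The median log2 fold change was −0.06 over the IAP loci and −0.10 over all loci. Against flow-through, 90 IAP loci (7.99%) were higher, beside 9.30% of all loci, and 14 (1.24%) were lower, beside 3.56%. The medians were 0.34 over the IAP loci and −0.02 over all loci. With library totals in place of TMM the median over all loci was −0.27, and 69 IAP loci were higher and 19 lower, beside 7.51% and 5.60%. Against input the same scaling gave 34 higher and 49 lower, beside 6.90% and 9.18%. The 88 loci called against input became 42 without input replicate 1 and 45 without input replicate 3, and the 104 against flow-through became 66 without Ψ-IP replicate 2 and 61 without Ψ-IP replicate 3. Counts behind the calls were low, with a median of 10.7 counts per library against input and 9.58 against flow-through. In 11 of the 88 loci called against input Ψ-IP had no counts, and in 17 of the 104 called against flow-through the flow-through had none, so no fold change is given for such loci.

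The calls were spread over the abundant segments, whose counts are to be read beside the shares over all loci, 5.45% higher and 10.7% lower against input and 9.30% higher and 3.56% lower against flow-through. In IAPLTR3-int of chromosome 14, 11 of 342 loci were higher and 32 lower than in input, and 37 were higher and 7 lower than in flow-through. In IAPEY3-int of chromosome 14, 1 of 149 was higher and 5 lower than in input, and 8 were higher and 3 lower than in flow-through. The IAPLTR2 segment of chromosome 17 had 17 of 69 loci higher than in flow-through and 0 lower, and 8 lower than in input and 0 higher. The neighbouring IAPEz-int segment had 1 of 117 higher and 2 lower than in flow-through. The LTR on the other side of that internal stretch, IAPLTR2 at chr17:27350973-27351376, had 0 of 13 loci called against flow-through, and as a segment it was at −0.30 (edgeR adjusted p = 0.248). One LTR copy thus differed in its calls from its neighbours, and the difference between them was not tested.

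With counts pooled over the 15 libraries, the most abundant IAP locus was a 29-nt piRNA of IAPLTR3-int at chr14:19634037-19634065 (minus strand, intergenic). It had 23.6, 17.2 and 21.9 RPM in Ψ-IP, 4.63, 4.95 and 6.31 RPM in input and 11.2, 6.47 and 6.22 RPM in flow-through. Every Ψ-IP library lay above every library of the other two groups. In log2 terms it was higher by 1.84 against input (SE 0.24, edgeR adjusted p = 2.38e-12) and by 1.64 against flow-through (SE 0.29, edgeR adjusted p = 5.96e-07). It had 18.3, 17.3 and 15.7 RPM in mock and 17.0, 19.3 and 15.0 RPM in CMC, groups that overlapped (log2 fold change −0.07, SE 0.13, edgeR adjusted p = 0.883). This locus thus passed in Ψ-IP against both groups, and its difference after CMC was within the spread between libraries. The Ψ-IP calls held in each of 12 alternatives. Its rank does not hold in each group, since in input the IAPEY3-int locus chr14:44760324-44760353, described below, was higher.

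The second locus by pooled counts, a 30-nt piRNA of IAPEY3-int at chr14:44760818-44760847 (minus strand, antisense to an intron of Gm34060), passed in no comparison. Its rank comes from the CMC arm, with 17.0, 16.2 and 17.5 RPM in mock and 0.80, 1.33 and 1.75 RPM in input. The third, also IAPEY3-int, was chr14:44760327-44760356. It had 5.22, 9.59 and 10.7 RPM in Ψ-IP and 0.47, 2.00 and 1.75 RPM in flow-through, with no overlap, and 3.95, 5.73 and 4.87 RPM in input. Against flow-through the log2 fold change was 2.90 (SE 0.37, edgeR adjusted p = 2.38e-13), and it was 0.70 against input (SE 0.25, edgeR adjusted p = 0.0268).

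A locus whose 5′ end lies 3 nt further along the same strand behaved otherwise. At chr14:44760324-44760353 there were 12.3, 7.91 and 11.4 RPM in input and 2.14, 1.90 and 2.55 RPM in Ψ-IP, while flow-through had 2.61, 6.80 and 6.85 RPM. Input was the high group, without overlap with Ψ-IP. Its log2 fold change was −2.37 against input (SE 0.27, edgeR adjusted p = 2.22e-15) and −1.02 against flow-through (SE 0.37, edgeR adjusted p = 0.0315). This pair of overlapping 30-nt piRNAs therefore had opposite signs against input, and the difference between them was not tested.

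The 2 other loci named for their pooled counts lie in the IAPLTR3-int segment of chromosome 14. At chr14:19632428-19632457 there were 2.39, 1.57 and 2.81 RPM in input and 0.69, 0.26 and 0.75 RPM in Ψ-IP, with no overlap and a log2 fold change of −2.04 (SE 0.40, edgeR adjusted p = 9.33e-06). At chr14:19629381-19629410 there were 1.63, 3.63 and 2.88 RPM in Ψ-IP, 0.64, 1.87 and 0.79 RPM in input and 0.65, 0.97 and 0.28 RPM in flow-through. One input library lay above the lowest Ψ-IP library. The log2 fold change was 1.22 against input (SE 0.35, edgeR adjusted p = 0.00405, higher in 8 of 9 pairings and lost in 6 of 12 alternatives) and 2.32 against flow-through (SE 0.48, edgeR adjusted p = 2.74e-05).

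Among loci that were lower in Ψ-IP than in input with an average of at least 50 counts, 2 more were named. At chr14:19632662-19632690 (IAPLTR3-int) there were 4.67, 4.35 and 5.14 RPM in input and 2.91, 1.64 and 2.05 RPM in Ψ-IP, a log2 fold change of −1.25 (SE 0.29, edgeR adjusted p = 0.000316). All loci with its 5′ end, chr14:19632690, summed gave −0.43 and did not pass (edgeR adjusted p = 0.117). Its mock-treated libraries had at most 0.11 RPM. The IAPLTR2 locus chr17:27354811-27354840, printed above, had 4.15, 3.26 and 4.50 RPM in input, 2.83, 1.81 and 1.55 RPM in Ψ-IP and 0.56, 0.70 and 0.35 RPM in flow-through. These groups formed 3 steps without overlap. The log2 fold change was −1.13 against input (SE 0.30, edgeR adjusted p = 0.00207) and 2.12 against flow-through (SE 0.53, edgeR adjusted p = 0.000803). The other printed 30-nt locus of this LTR, chr17:27354816-27354845, had 3.77, 2.59 and 2.51 RPM in Ψ-IP, 1.84, 1.99 and 2.38 RPM in input and 0.74, 0.11 and 0.35 RPM in flow-through. Ψ-IP was the high group without overlap, at 3.06 on the log2 scale against flow-through (SE 0.51, edgeR adjusted p = 6.52e-08) and 0.36 against input (edgeR adjusted p = 0.43).

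**Figure D3:**
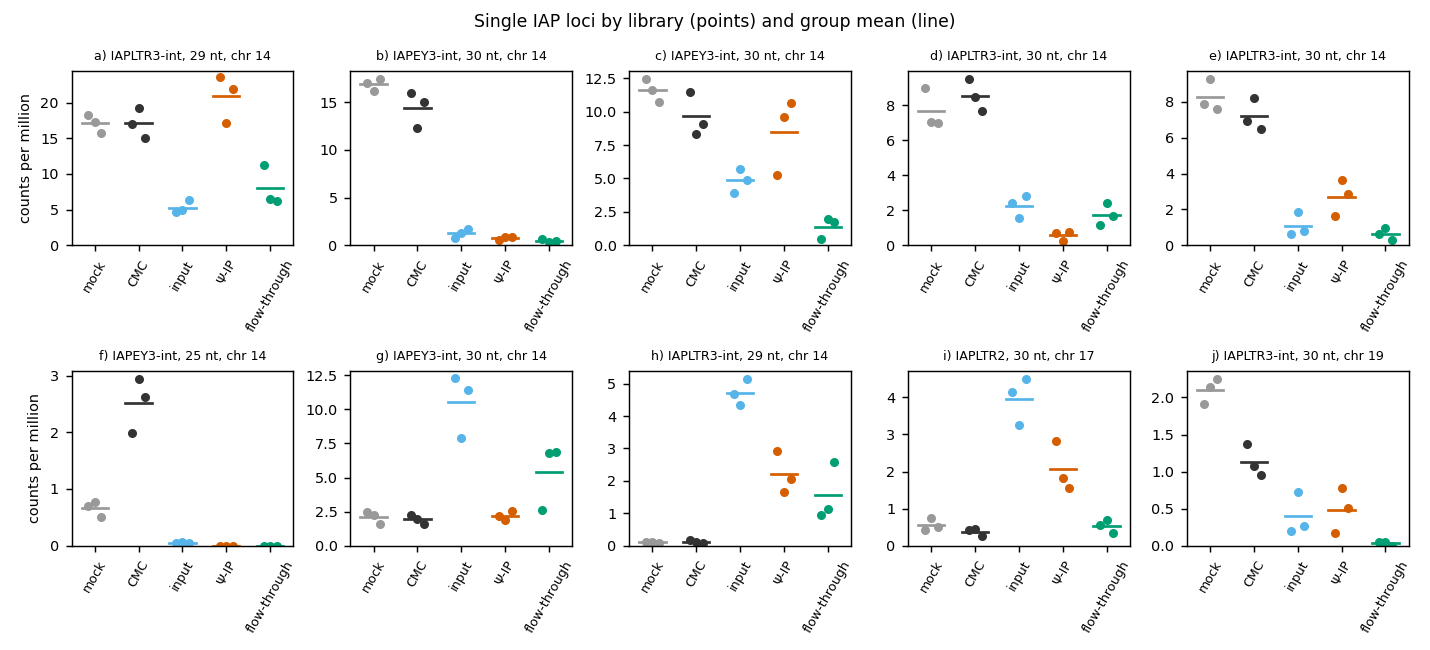
Level of the named IAP loci (panels a to j) in each library, in counts per 1000000 on linear axes from 0, with 1 point per library, a line at the group mean and colours for the 5 groups. The locus with the highest pooled count (panel a) lies at 17.2 to 23.6 RPM in Ψ-IP and at 4.63 to 6.31 RPM in input.

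Loci of different length often share a 5′ end, and they were also summed by 5′ end, an alternative that was chosen after the data were seen. Of 1249 IAP 5′ ends, 33 were higher in Ψ-IP than in input, beside 7.32% of all ends, and 49 were lower, beside 11.7%. Against flow-through 89 were higher, beside 10.5%, and 19 were lower, beside 5.45%. The IAPLTR2 end at chr17:27354833, whose forms are printed above, had 17.3, 19.2 and 11.9 RPM in Ψ-IP and 24.9, 16.2 and 27.8 RPM in input. In flow-through it had 1.72, 2.32 and 0.70 RPM. Ψ-IP overlapped with input and was far above flow-through, by 3.50 on the log2 scale (SE 0.32, edgeR adjusted p = 3.82e-17). Against input it was −0.61 (SE 0.21, edgeR adjusted p = 0.0203). Of its printed forms, the 28-nt form was lower in Ψ-IP than in input (−1.76, SE 0.35, edgeR adjusted p = 1.01e-05). The 26-nt, 27-nt, 29-nt and 30-nt forms were at −0.84, −0.73, −0.93 and −0.91 against input and did not pass. Summed over all lengths, this 5′ end differed little between the groups of the CMC arm. In that arm the end had 3.43, 3.97 and 3.02 RPM in mock and 2.97, 3.02 and 3.15 RPM in CMC.

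Other 5′ ends of the chromosome 14 segments went in opposite directions against input. They were named from among the most abundant ends after their values were seen. The minus-strand end at chr14:19634065, that of the most abundant locus, rose by 1.78 on the log2 scale (SE 0.21, edgeR adjusted p = 4.31e-11). The IAPLTR3-int end at chr14:19631846 had 1.80, 0.78 and 0.96 RPM in Ψ-IP and 6.38, 7.12 and 6.57 RPM in input, which is −2.61 on the log2 scale (SE 0.30, edgeR adjusted p = 6.89e-12). The end at chr14:19632690 (13.0, 11.8 and 13.0 RPM in Ψ-IP) and that at chr2:98334014 (12.7, 13.0 and 12.4 RPM in Ψ-IP) had similar levels, and both were higher in Ψ-IP than in flow-through (log2 fold changes 1.64 and 1.72, edgeR adjusted p = 9.98e-07 and 3.47e-07). Both are IAPLTR3-int on the minus strand, and whether reads shared between copies were counted at both was not tested.

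CMC treatment changed few IAP loci. Of 1196 tested, 4 were higher in CMC than in mock, beside 1.07% of all 556583 loci, and 1 was lower, beside 0.654%. The IAP shares were 0.334% and 0.0836%. Summed by 5′ end, 4 of 952 IAP ends were higher, beside 1.17% of all ends, and 0 were lower, beside 1.03%. The locus that was lower was IAPLTR3-int at chr19:9482584-9482613 (plus strand, 30 nt), with 1.91, 2.14 and 2.25 RPM in mock and 1.37, 1.08 and 0.95 RPM in CMC. The groups did not overlap, and the log2 fold change was −0.91 (SE 0.21, edgeR adjusted p = 0.00483). This call did not hold in 5 of 12 alternatives. In the IP arm this locus did not pass, at 0.17, 0.78 and 0.50 RPM in Ψ-IP and 0.20, 0.72 and 0.26 RPM in input.

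The 4 loci that rose with CMC were not the most abundant ones, but 3 of them were shortened forms of such loci. The 26-nt and 27-nt forms of the most abundant IAPLTR3-int locus share its 3′ end and lack 3 and 2 bases at the 5′ end. The 27-nt form had 0.25, 0.38 and 0.40 RPM in mock and 1.41, 1.37 and 1.87 RPM in CMC, and it rose by 2.07 on the log2 scale (SE 0.27, edgeR adjusted p = 5.07e-07). For the 26-nt form the log2 fold change was 1.95 (SE 0.34, edgeR adjusted p = 0.000153). At chr14:44760823-44760847 a 25-nt form of the most abundant IAPEY3-int locus, without 5 bases of its 3′ end, had 0.70, 0.77 and 0.50 RPM in mock and 1.98, 2.94 and 2.63 RPM in CMC (log2 fold change 1.82, SE 0.22, edgeR adjusted p = 1.5e-07). The fourth was the 31-nt IAPEz-int locus chr17:27352845-27352875, with 0.42, 0.82 and 0.52 RPM in mock and 1.08, 1.62 and 1.54 RPM in CMC (log2 fold change 1.09, SE 0.26, edgeR adjusted p = 0.00666). In all 4 the CMC-treated libraries lay above the mock-treated ones.

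A modified piRNA would be raised in Ψ-IP and lowered by CMC. Of 378 IAP loci tested in both arms, 11 were higher in Ψ-IP than in input, 1 was lower in CMC than in mock, and 0 were both. Over all 293568 loci tested in both arms, 7.87% were higher in Ψ-IP than in input, 1.09% were lower in CMC than in mock and 0.298% were both. Of the loci called for CMC, 2 had an average of at least 50 counts.

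IAP piRNAs were mostly of MIWI length. The CMC and mock libraries held no locus above 33 nt and the IP arm reached 44 nt, so shares of the arms rest on different length ranges. At 29 to 31 nt lay 59.0% ± 0.48 of the IAP counts in input, 63.3% ± 0.89 in Ψ-IP, 59.6% ± 1.61 in flow-through, 59.9% ± 1.37 in mock and 56.8% ± 2.11 in CMC (SD, n = 3). All 3 Ψ-IP libraries (62.7% to 64.3%) lay above all input libraries (58.5% to 59.5%) and flow-through libraries (58.5% to 61.4%). The differences were 4.26 percentage points against input and 3.70 against flow-through (exact permutation p = 0.1 each, the smallest value possible). CMC differed from mock by −3.10 percentage points (exact permutation p = 0.2), and these groups overlapped. Over all loci the shares were 67.2% in input, 69.1% in Ψ-IP and 65.7% in flow-through, so the IAP loci of the IP arm held a smaller share at this length than loci in general.

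At 25 to 27 nt, the MILI length, lay 16.7% of the IAP counts in input, 14.8% in Ψ-IP, 15.5% in flow-through, 18.5% in mock and 20.6% in CMC. The names differed from each other. In the IP arm, 8.06% of IAPEY3-int counts were of 25 to 27 nt and 72.4% of 29 to 31 nt. For IAPLTR2 the same shares were 28.8% and 44.5%, and for IAPEz-int 21.3% and 43.3%. In the CMC arm the shares at 25 to 27 nt were 12.0% for IAPEY3-int, 28.5% for IAPLTR2 and 22.3% for IAPEz-int, the same order.

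**Figure D4:**
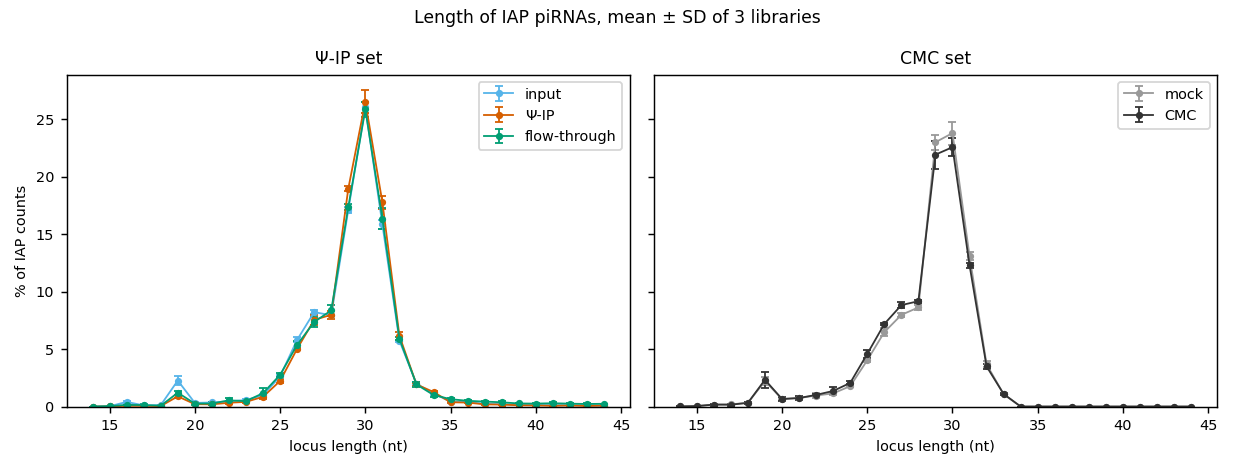
Share of IAP counts at each locus length (nt) in each group, in percent, as mean ± SD of 3 libraries, with the IP arm and the CMC arm in separate panels. Ψ-IP holds the highest share at 29 to 31 nt (63.3%), and CMC the highest share at 25 to 27 nt (20.6%).

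IAP loci also paired across strands. For each overlap of 1 to 20 nt between the 5′ ends of loci on opposite strands, the lower of the 2 counts was summed, and an overlap of 10 nt was the most frequent in 15 of 15 libraries. It took 9.53% to 12.8% of the IAP pairs in mock and CMC, 10.8% to 15.0% in input and Ψ-IP, and 15.7% to 19.5% in flow-through. The flow-through libraries were above all others, Ψ-IP included. The other ERVK loci ranged from 8.55% to 11.8% over the 15 libraries and all loci from 8.78% to 12.7%, with the highest value of each set in flow-through. The IAP values rest on 127 to 1074 pairs per library over all 20 overlaps, and no test was run on them.

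**Figure D5:**
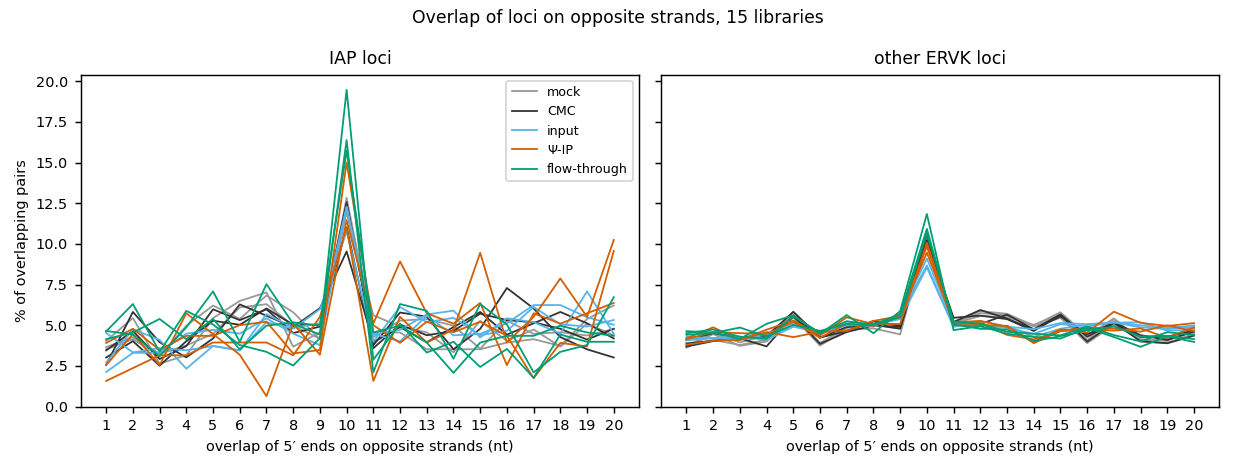
Share of pairs (percent) at each overlap of 1 to 20 nt between 5′ ends on opposite strands, with 1 line per library, for IAP loci and for other ERVK loci (panels). The IAP peak at 10 nt reaches 15.7% to 19.5% in flow-through and 9.53% to 15.0% in the other groups.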

How the data were processed

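The authors clipped adaptors, kept reads of 14 to 44 nt, set tRFs aside, mapped the rest to mm10 with Bowtie2, allowed no more than 3 mismatches, assigned repeats with bedtools (names per the submitters' processing notes), and kept reads within annotated piRNA clusters (piCdb), so IAP reads outside clusters are not in these values. The deposited values are raw read counts per interval and strand, with 1 file per library. In the CMC and mock libraries they end at 33 nt, whereas in the IP arm they reach 44 nt. Depth per library was 11575705 to 58399368 counts, and counting precision follows the counts behind each value.

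The counts were joined by locus, and lengths were taken from the coordinates. The main test was that of edgeR 4.0.16 under R 4.3.3 (TMM, quasi-likelihood test, Benjamini-Hochberg over the whole table) on the 6 libraries of each comparison, for features with more than 20 counts in total over the IP arm (9 libraries) or the CMC arm (6 libraries). DESeq2 1.42.0 was an alternative. A call is an adjusted p below 0.01. SE is that of the log2 fold change. A file lists an interval under more than 1 repeat in 5755 cases, 18 of them IAP. Single values were compared by exact permutation tests, two-sided.

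The members and lists were chosen with earlier results of these data known. Named were the 5 names, segments and loci with the highest average count, all names and segments called, and in each comparison the largest changes (3 loci, 2 segments per direction) with an average of at least 50 counts and the same direction in 9 of 9 pairings. Replicates differed by more than sampling noise (chi-square per degree of freedom 1.745 to 6.168). Deviations of same-numbered libraries from the group means, over loci with an average above 50 counts, correlated at 0.125, 0.146 and 0.295 for CMC and mock, and differently numbered libraries reached 0.23. Over segments the same-numbered values of CMC and mock were only −0.0664 to 0.0775 and over names 0.019 to 0.0676, so their pairing is possible at loci alone. For Ψ-IP and input the same-numbered libraries correlated at 0.251, 0.304 and −0.0296 over loci, and differently numbered ones reached 0.188. For Ψ-IP and flow-through the values were 0.0885, 0.182 and −0.0464, and differently numbered libraries reached 0.0506. Replicates 1 and 2 lay above every differently numbered pair, also over segments and names, and replicate 3 did not. Pairing of replicates 1 and 2 is thus possible in the IP arm, and pairing of all 3 is not shown. The labels give no source for the numbers.

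On simulated data, for Ψ-IP against input, 4 of 100 loci changed 2-fold and 79 of 100 changed 4-fold were recovered with 0 false calls (686863 loci), and 99 and 100 of 100 segments. For CMC, 68 and 100 of 100 loci were recovered with 1 false call (556583 loci).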

Additional observations from a re-analysis of the deposited data

How the results depend on the processing

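Most 2-fold changes simulated at loci for Ψ-IP against input were missed, although these loci had an average of at least 50 counts. An IAP locus that did not pass there is therefore not shown to be unchanged. Of the 88 IAP loci called in this comparison, 5 had such an average, and recovery at rarer loci was not measured. With 3 libraries per group, exact tests of single values cannot go below p = 0.1. The counts of IAP calls kept within 1.5 times of the reported ones in most alternatives (the causes of the exceptions were not tested), and no called value of a named feature turned its sign, while 53 of 334 such values lost their call.

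For Ψ-IP against input, the 88 called loci became 39 with a minimum of more than 100 counts (fewer loci tested) and 44 with DESeq2, and 42 to 90 when one library was left out, with 42 without input replicate 1 and 45 without input replicate 3. The 3 called segments ranged from 0 to 3 on leaving out a library, the 0 of the names from 0 to 1 (IAPLTR2 without input replicate 2), and DESeq2 called 1 name. The IAP total, 0.0199 and not called, was −0.00528 with DESeq2 size factors, −0.0341 with no minimum, −0.00556 with DESeq2, −0.0448 with library totals, and −0.0465 to 0.0553 when one library was left out. For Ψ-IP against flow-through, the 104 called loci became 48 with more than 100 counts and 61 to 90 with one library left out (66 without Ψ-IP replicate 2, 61 without Ψ-IP replicate 3). The 9 segments ranged from 6 to 9 and the 4 names from 2 to 4 (2 without flow-through replicate 1, flow-through replicate 2 or Ψ-IP replicate 2). The ratio of IAP to other ERVK turned from −0.0308 to 0.179 when only loci with more than 20 counts were used (exact permutation p = 0.1). For CMC against mock, the 5 loci became 3 with DESeq2 and 3 to 5 with one library left out (3 without mock replicate 3, CMC replicate 2 or CMC replicate 3), and DESeq2 called 1 name.

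With the replicate number as a block, Ψ-IP against input gave 73 loci and 5 segments, Ψ-IP against flow-through gave 74 loci, 8 segments and 3 names, and CMC against mock gave 5 loci, 1 segment and 1 name (both IAPLTR2b). Only over CMC and mock loci did every same-numbered pair correlate above 0.1, and not every library correlated best with its own number. In the IP arm, replicates 1 and 2 correlated above all differently numbered pairs, and replicate 3 did not.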
